A study of Oryza sativa with 2 samples.

Results

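Of 12487 peaks of the rice transcription factor OsbHLH002, 555 (4.44%) lay around the centromeres, with their start within 2 Mb of the centromere point of 1 of the 12 chromosomes. The points were taken from 2.8 Mb on chromosome 9 to 19.4 Mb on chromosome 3. These pericentromeric peaks were chosen by position alone and carried 654 of the 14709 genes in the list, where a gene is listed when its start lies within 2 kb of a peak. They are set here against the other 11932 peaks. As a bHLH protein, OsbHLH002 belongs to the basic helix-loop-helix factors. The study asked where it sits on the genome. Chromatin came from rice plants of the mutant Osbhlh002-1 carrying the transgene gOsbHLH002-3FLAG, a genomic copy of the gene with a FLAG tag, and FLAG antibody was used for the immunoprecipitation (IP, 1 library). It was compared with its input (1 library) from plants of the same genotype. Tissue, plant age and the number of plants pooled are not stated in the sources used, and plants without the tag were not analysed here. With 1 IP there was no replicate, so the comparisons below carry no test and describe this list alone, and their intervals cover counting error only.

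A centromere is the stretch of a chromosome to which the spindle attaches through the kinetochore. In rice it consists of a short satellite repeat and of centromeric retrotransposons, elements that copy themselves through RNA, and is flanked by heterochromatin that rarely recombines. That flanking sequence is rich in Ty3-gypsy retrotransposons and holds few active genes, although active genes have been found within some rice centromeres. bHLH factors bind short E-box motifs, most often in the promoters of active genes.

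Listed peaks were sparse around all 12 centromeres. The 48 Mb within 2 Mb of a centromere held 11.6 listed peaks per Mb, against 36.8 per Mb on the other 325 Mb, a ratio of 0.315 (95% exact Poisson interval of the pericentromeric count, 0.289 to 0.342). The other 325 Mb end at the last listed peak of each chromosome. By chromosome the pericentromeric density ran from 7 per Mb on chromosome 10 and 7.25 on chromosome 4 to 16.8 on chromosomes 2 and 3, and elsewhere from 21.01 per Mb on chromosome 11 to 52.9 on chromosome 3. The pericentromeric value was the lower in 12 of 12 chromosomes, and the 2 ranges did not overlap. The ratio was lowest on chromosome 4 (0.204) and highest on chromosome 11 (0.464). Density did not step up at 2 Mb. Within 0.5 Mb of the centromere it was 7.33 per Mb, at 1 to 1.5 Mb 15 and at 1.5 to 2 Mb 12.1. At 3 to 4 Mb the density was 14.4, at 6 to 8 Mb 27.5 and beyond 12 Mb 55.7. At the 2 Mb limit the last peak inside, at LOC_Os01g25920 (an expressed protein gene), had a fold enrichment of 2.52, and the first one outside, at the purple acid phosphatase gene LOC_Os08g17784, had 2.39. Fold enrichment is the authors' value at the summit, and matches the IP fragments over the local background with 1 added to each.

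**Figure D1:**
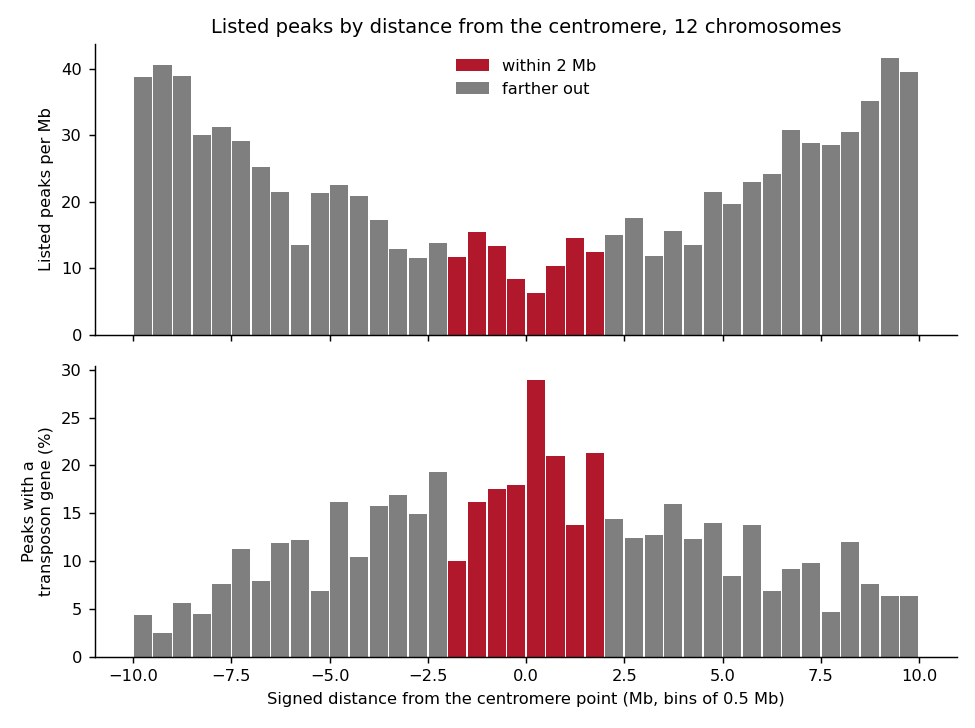
Listed peaks per Mb (top) and the percentage of them with a transposon gene (bottom), by signed distance from the centromere in Mb, summed over 12 chromosomes in bins of 0.5 Mb. Bins within 2 Mb are red, and the innermost bins hold 8.33 and 6.33 peaks per Mb.

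The identifiers of the genes give a measure of how many gene models lay in these windows, since numbers rise along a chromosome mostly in steps of 10 (93.6% of listed identifiers end in 0). From the first to the last listed gene of each window the identifiers spanned 8418 such steps, or 175 per Mb, against 164 per Mb elsewhere. By this estimate 7.77% of the pericentromeric gene models had a listed peak, against 26.3% elsewhere, and the share was lower near the centromere in 12 of 12 chromosomes. Gene models of transposons are numbered in the same way as other genes, and how many of each kind lay in the windows was not analysed here.

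Peak numbers without an entry in the list were sparse here as well. Peaks were numbered along each chromosome up to 22071. Numbers with no entry were counted as peaks that are not listed. By the rule of the list a peak with no gene start within 2 kb has no entry. How many of the numbers this covers was not tested. Listed and unlisted numbers together came to 836 in the pericentromeric windows, or 17.4 per Mb, against 65.3 per Mb elsewhere. Of the pericentromeric numbers 66.4% were listed (95% exact binomial interval 63.1 to 69.6%), against 56.3% elsewhere (55.6 to 57.0%). The share was higher near the centromere in 11 of 12 chromosomes, the exception being chromosome 11 (58.2% against 58.7%). On chromosome 12 the shares were 60.4% and 60.3%.

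No listed peak covered a centromere point as given. The points are rounded Mb values, and on chromosomes 1 and 2 a listed peak started 0.007 Mb away. Which peaks and stretches lie over a centromere therefore depends on the rounding. The stretches over the 12 points that were free of listed peaks added up to 4026 kb and ran from 22.7 kb on chromosome 1 and 52.6 kb on chromosome 3 to 658 kb on chromosome 11 and 757 kb on chromosome 5, with a median of 339 kb. Only 5 peak numbers without an entry fell in them, 1 each on chromosomes 2, 8, 10, 11 and 12, so in the remaining 7 stretches no peak of either kind had been numbered. The stretch on chromosome 5, from 11695643 to 12452572, was the longest on that chromosome. On the other chromosomes longer ones lay elsewhere, 1 each on chromosomes 10 and 11 and 550 on chromosome 1. How many reads could be placed in these stretches was not measured. Between neighbouring pericentromeric peaks the median gap was 43.6 kb, against 13.1 kb between other neighbours, and 27.1% of gaps exceeded 100 kb, against 4.35%.

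**Figure D2:**
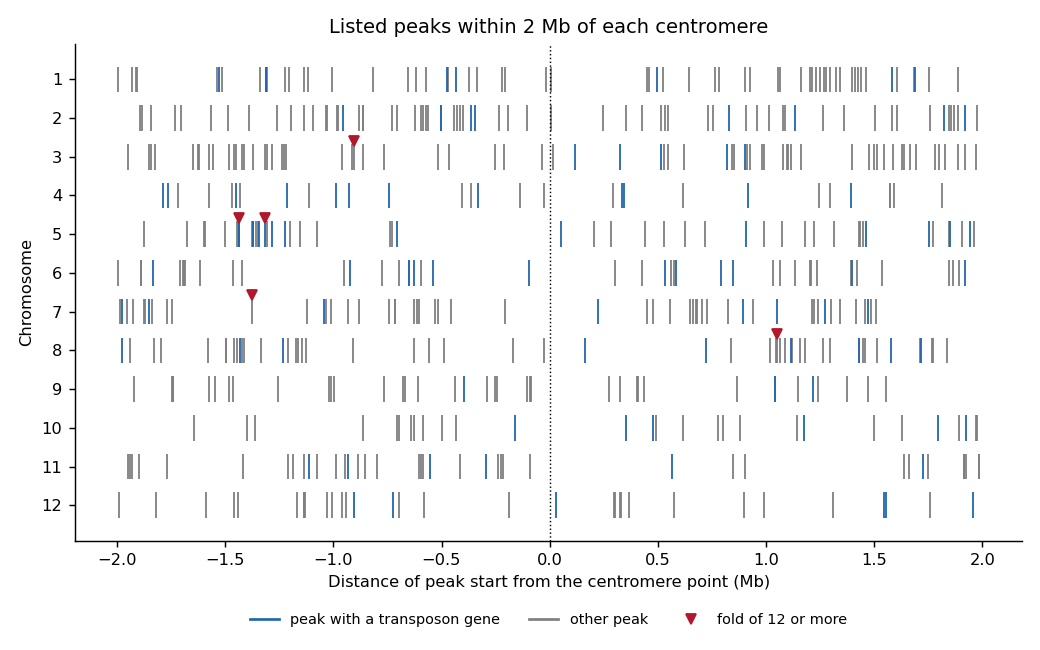
Each of the 555 pericentromeric peaks as a line, by distance of its start from the centromere point (Mb) and by chromosome. Blue lines are the 97 peaks with a transposon gene, grey lines the other 458, and triangles mark the 5 peaks of 12-fold or more, of which 2 lie on chromosome 5.

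Peaks close to the centromere points were as strong as the rest. The 88 listed peaks within 0.5 Mb of a point had a median fold of 3.13. Of them 17.0% reached a fold of 5 or more, against 13.9% of all listed peaks. The points are rounded Mb values, so which single peak is nearest depends on the rounding. The nearest listed peak of each chromosome had a fold between 1.77 and 4.96. On chromosome 1 it stood at LOC_Os01g29820, an expressed protein gene (fold 2.34), and on chromosome 2 at LOC_Os02g22820, another such gene (3.61). On chromosome 3 it stood at the ribosomal protein gene LOC_Os03g34040 (3.02), 169 bp upstream of the start. The next were the rhodanese-domain gene LOC_Os04g17660 (3.12) on chromosome 4 and, on chromosome 5, a peak shared by the retrotransposon LOC_Os05g21170 and the phosphatidic acid phosphatase-related gene LOC_Os05g21180 (4.96), with the summit 76 bp upstream of the phosphatase gene. Ty3-gypsy elements bordered the points of chromosomes 6 (LOC_Os06g25970, fold 3.60), 10 (LOC_Os10g15240, 2.58) and 12 (LOC_Os12g20430, 2.38). The peak on chromosome 12 was shared with the unclassified transposon LOC_Os12g20420. RNA helicase genes bordered those of chromosomes 7 (LOC_Os07g20580, 1.77) and 11 (LOC_Os11g20554, 2.63). A phosphatidylinositol 3-kinase gene (LOC_Os08g21590, 2.10) was nearest on chromosome 8 and an expressed protein gene (LOC_Os09g05040, 2.21) on chromosome 9. The peaks at LOC_Os07g20580, LOC_Os08g21590 and LOC_Os09g05040 did not reach a q of 0.05. Their −log10 q values were 0.581, 0.865 and 1.01. The nearest peaks of the other chromosomes did reach that q.

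In strength the pericentromeric peaks hardly differed from the others. Their median fold was 3.07 (95% interval of the median from its order statistics 2.94 to 3.13; quartiles 2.51 and 3.97), against 3.13 (quartiles 2.57 and 4.11) for the others. The difference of the medians was -0.03 on the log2 scale. Both groups hold only called peaks, and the lowest −log10 p in the list was 2.005, so weaker sites are absent from both. The median summit held 19 IP fragments over a local background of 5.19 fragments near the centromere, and 20 over 5.19 elsewhere, in counts recovered from the deposited fold and p. Counts this low make the fold move in steps: the most frequent fold, 3.13, came from 16 fragments and the genome-wide background of 4.44, with 1 added to each, and was shared by 18 pericentromeric and 206 other peaks. By chromosome the median fold was higher near the centromere on 4, lower on 7 and equal on 1. It was highest on chromosome 3 (3.48 against 3.15) and lowest on chromosomes 9 (2.75 against 3.07) and 12 (2.75 against 3.11). Within the windows the fold did not follow the distance from the centromere (Spearman's rho -0.04 across 555 peaks, which share 1 library and are not replicates).

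A fold of 5 or more was reached by 83 pericentromeric peaks (15.0%), where over all listed peaks it was 13.9%. A q of 0.05 or less was held by 486 (87.6%), against 90.1% of all listed peaks, so 69 pericentromeric peaks were above that q. The pericentromeric peaks were narrower than the rest, with a median width of 384 bp (interval 365 to 417 bp), against 448 bp (443 to 454 bp). Widths were lower near the centromere in 10 of 12 chromosomes, and higher on chromosomes 5 (475 bp against 442 bp) and 7 (441 bp against 436 bp). The difference was not particular to the windows. The median was 451.5 bp within 0.5 Mb of the centromere, 357 bp at 1.5 to 2 Mb, 392 bp at 2 to 3 Mb, 414 bp at 4 to 6 Mb and 470 bp beyond 12 Mb. With windows of 1 Mb to either side the widths were closer, 424.5 bp against 446 bp. Only 6 were 2000 bp or wider (1.08%), against 1.91% of all listed peaks. The share at the genome-wide background was 26.8%, against 26.0% elsewhere, and with windows of 1 Mb 23.04%, against 26.1%.

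**Figure D3:**
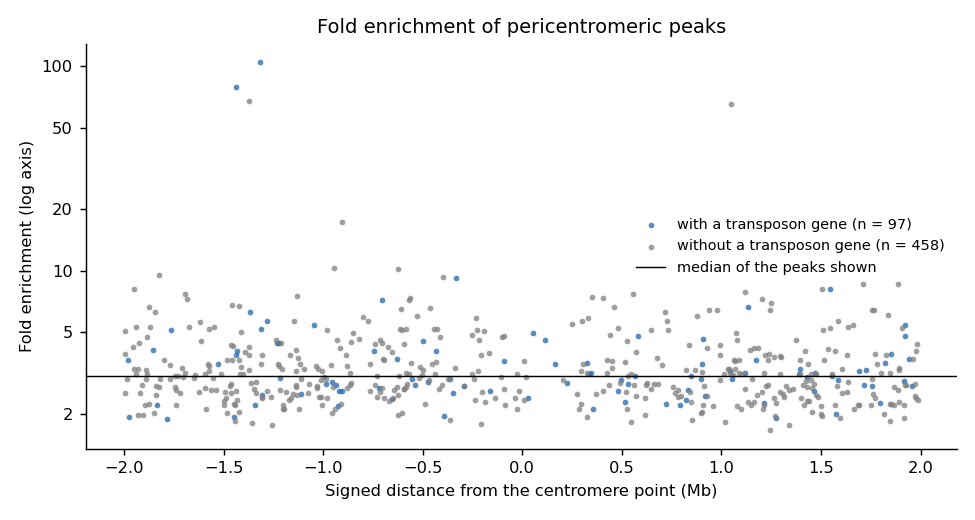
Fold enrichment (log axis) of each of the 555 pericentromeric peaks by signed distance from the centromere point in Mb, with peaks on a transposon gene in blue and the others in grey. The line is the median, 3.07, and the 4 points above 50 stand apart from the rest.

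Few peaks broke out of this narrow range. Just 4 had a fold above 50 (0.721%, against 35 or 0.293% of the others), and 1 more had a fold of 12 to 50 (0.180%, against 68 or 0.570%). Together the peaks of 12-fold or more made up 0.901% of the pericentromeric peaks, against 0.863% of the others. These 5 held 13.3% of all pericentromeric summit fragments, 1873 of 14084, against 9.80% for the 103 elsewhere. The strongest lay on chromosome 5 from 11084088 to 11089734, with a fold of 104, 595 IP fragments at the summit and a background of 4.72. Its summit was 827 bp upstream of LOC_Os05g19110, an expressed protein gene, and it also carried the unclassified retrotransposon LOC_Os05g19100, whose start lay 3740 bp away. The second, 116 kb away with 6 listed peaks in between, lay from 10963713 to 10967763, reaching 78.9-fold and 428 fragments. It carried 2 transposon genes, the unclassified LOC_Os05g18890 and LOC_Os05g18900 of the CACTA class, which moves as DNA. They lay before the centromere point, at signed distances of -1.32 Mb (the stronger) and -1.44 Mb.

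The other 2 of the 4 were on genes of metabolism. On chromosome 7 a peak from 10726209 to 10729868 reached 67.8-fold, with its summit inside LOC_Os07g18120, 3066 bp downstream of the start. That gene is described as an aldehyde oxidase, an enzyme family that in plants includes the last step of abscisic acid synthesis. On chromosome 8 a peak from 13949468 to 13956279, the widest of the pericentromeric peaks at 6812 bp, had a fold of 64.9. Its summit lay 2454 bp upstream of LOC_Os08g23150, described as an indole-3-glycerol phosphate synthase, an enzyme of tryptophan synthesis in the chloroplast. These 4 peaks were 3660 to 6812 bp wide and had backgrounds of 4.44 to 4.72 fragments, at or just above the genome-wide level. The remaining one, at the expressed protein gene LOC_Os03g32330 on chromosome 3, was of another shape, 660 bp wide and enriched 17.2-fold, with its highest point 200 bp upstream of the start.

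All other pericentromeric peaks had a fold of 10.3 or less. The lipase gene LOC_Os11g19290 (fold 10.3) had its summit 266 bp upstream of the start. LOC_Os07g19390 (10.2), a gene for a UBX-domain protein, the domain by which cofactors hold the CDC48 ATPase, had it 297 bp upstream. LOC_Os02g22160, described only as a DNA binding protein, had a fold of 9.35 in a peak of 2566 bp, 236 bp upstream of its start. The peak shared by the retrotransposon LOC_Os04g17090 and the heavy metal-associated domain gene LOC_Os04g17100 had a fold of 9.24, with the summit 82 bp upstream of the heavy metal-associated gene. LOC_Os08g24210, for an agmatine coumaroyltransferase, which joins a phenylpropanoid acid to an amine in plant defence, had a fold of 8.60 with the summit beyond its 3′ end, 1657 bp from the start. The cyclin-dependent kinase G gene LOC_Os12g23700 had 8.12, with the summit 232 bp upstream, and shared its peak with the retrotransposon LOC_Os12g23690. The rest of the 15 strongest peaks were on the expressed protein genes LOC_Os03g30840 (9.56), LOC_Os03g38359 (8.64) and LOC_Os02g25780 (8.15) and on LOC_Os03g30570, of a domain family of unknown function (8.13). On the 4 chromosomes with none of these 15 peaks the highest folds were 7.30 at LOC_Os01g32660, a MAP kinase kinase gene with its summit 7 bp upstream, 7.65 at LOC_Os06g23300 (an expressed protein gene), 7.35 at the RING zinc finger gene LOC_Os09g06740 and 5.98 at the F-box gene OsFBX382 on chromosome 10.

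Transposon genes made up a larger part of the pericentromeric peaks than of the others. At least 1 transposon gene was on 97 of 555 peaks (17.5%, interval 14.4 to 20.9%), against 821 of 11932 others (6.88%, 6.43 to 7.35%). The share was higher near the centromere in 12 of 12 chromosomes. It was largest on chromosome 4 (41.4% against 7.05%, 12 of 29 peaks) and differed least on chromosomes 9 (7.89% against 5.97%) and 3 (7.46% against 4.68%). The share was 22.7% within 0.5 Mb of the centromere (interval 14.5 to 32.9%), 15.9% at 1.5 to 2 Mb, 15.1% at 2 to 3 Mb and 5.16% beyond 12 Mb. Per Mb, peaks with a transposon gene numbered 2.02 near the centromere, against 2.53 elsewhere, and peaks without one 9.54, against 34.2. How the authors treated reads that match several places is not stated in the sources used, and its part in these counts was not tested.

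Retrotransposons supplied most of these genes. Of 654 pericentromeric genes 104 were transposons (15.9%, against 5.99% of the genes elsewhere), 79 of them retrotransposons (12.1%, against 3.84%). The Ty3-gypsy class had 20 genes near the centromere and 84 elsewhere, so 19.2% of the listed Ty3-gypsy genes were pericentromeric, where the share over all listed genes was 4.45%. The Ty1-copia class, the other large group of retrotransposons, had 3 near and 68 elsewhere (4.23%), and the CACTA class had 7 and 100 (6.54%). Unclassified retrotransposons had 56 and 384 (12.7%). Among these unclassified entries, 14 genes of the list were described as centromere-specific retrotransposons, and 6 of them (42.9%) lay within 2 Mb of a centromere point. This class was set after its members were seen.

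Near the centromere the peaks on Ty3-gypsy and centromere-specific elements were weak. The 20 Ty3-gypsy genes had folds of 1.92 to 4.60 (median 2.75), against a median of 3.13 for the 84 elsewhere, and LOC_Os03g34290 on chromosome 3, only 0.116 Mb from the point, had the highest. The 6 centromere-specific elements were at 2.30 in the median, where the 8 elsewhere were at 2.88. Of the 6, LOC_Os04g16468 had a fold of 4.04 and LOC_Os07g22050 had 2.83. For the remaining 4 it was 2.33 (LOC_Os03g36520), 2.27 (LOC_Os03g35894), 2.21 (LOC_Os06g28320) and 1.93 (LOC_Os07g17200). The peak of LOC_Os07g22050 was shared with a zinc finger gene whose start was closer to the summit, 138 bp against 712 bp. That of LOC_Os04g16468 was shared with the unclassified transposon LOC_Os04g16480, whose start was also closer, 1379 bp against 2058 bp. LOC_Os06g28320 shared its peak with the retrotransposon LOC_Os06g28330, whose start was farther, 1586 bp against 1133 bp. The highest Ty1-copia gene was LOC_Os02g25280 (fold 6.62) and the highest Pong gene LOC_Os01g27580 (5.17). Over all peaks with a transposon gene the median fold was 3.02 near the centromere (97 peaks), against 3.31 elsewhere (821 peaks). Over peaks without one it was 3.07 (458 peaks), against 3.13 (11111 peaks).

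**Figure D4:**
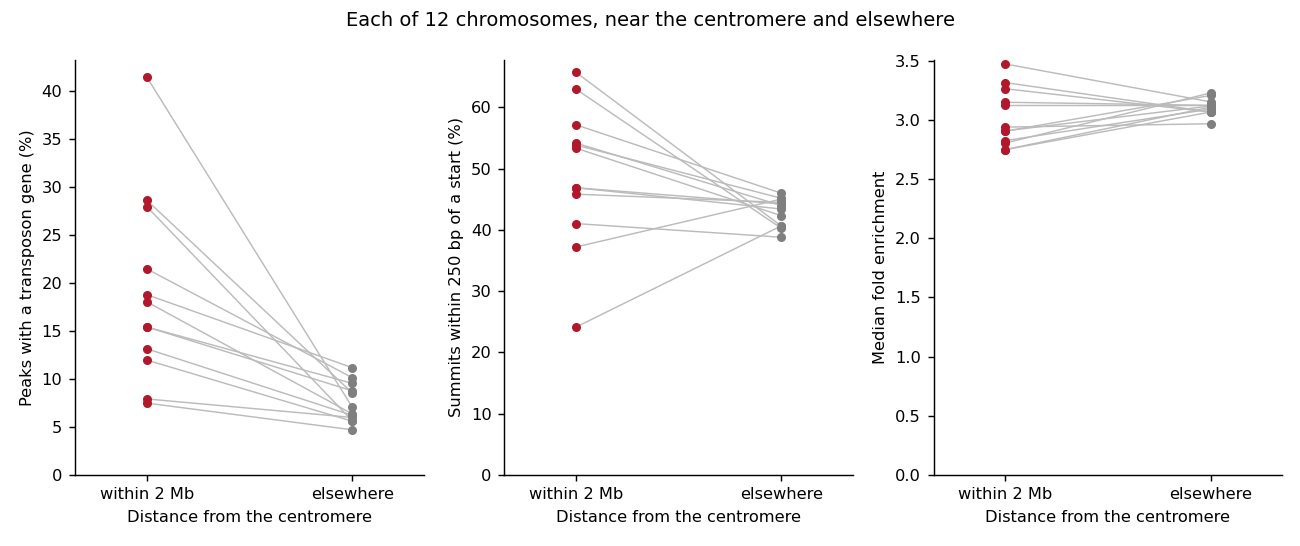
For each of 12 chromosomes, the value near the centromere (red, left) joined to that elsewhere (grey, right) for the percentage of peaks with a transposon gene, the percentage of summits within 250 bp of a gene start, and the median fold. All 12 lines fall in the first panel and 10 of 12 in the second, while in the third 7 rise, 4 fall and 1 is level.

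Pericentromeric summits kept close to gene starts. Where the summit lay no more than 2 kb from the closest listed start, it was within 250 bp of that start in 49.5% of 539 pericentromeric peaks (interval 45.2 to 53.8%), against 43.3% of 11279 others (42.3 to 44.2%). The share was higher near the centromere in 10 of 12 chromosomes. It was highest on chromosome 9 (65.7% against 40.6%) and was lower on chromosomes 4 (24.1% against 40.7%) and 6 (37.2% against 45.03%). Chromosome 4 was also the one with the largest share of transposon peaks. Without transposon peaks the shares were 53.7% of 445 (interval 49.0 to 58.4%), against 44.3% of 10535 (43.4 to 45.3%), and among peaks with a transposon gene they were 29.8% of 94 (20.8 to 40.1%), against 27.8% of 744 (24.6 to 31.2%). The list holds only peaks near a gene start, and each gene carried 1 peak.

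The side of the start differed less. Summits lay upstream in 57.9% of the 539 (interval 53.6 to 62.1%), against 60.9% of the others (60.02 to 61.8%). Over all 555, 320 summits were upstream, 196 inside the gene (35.3%, against 31.2% elsewhere) and 39 past its 3′ end (7.03%, against 8.004%). The nearest gene had a median length of 3029 bp (2763 to 3310 bp) near the centromere, against 2739 bp (2681 to 2793 bp). A similar share of peaks was on 1 gene, 82.7%, against 82.9% elsewhere. Of 93 pericentromeric peaks on 2 genes, 54 lay at pairs transcribed away from each other (58.1%, interval 47.4 to 68.2%), against 64.8% of 1951 elsewhere. In 29 of the 93 a transposon was paired with another gene (31.2%, against 13.7%).

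**Figure D5:**
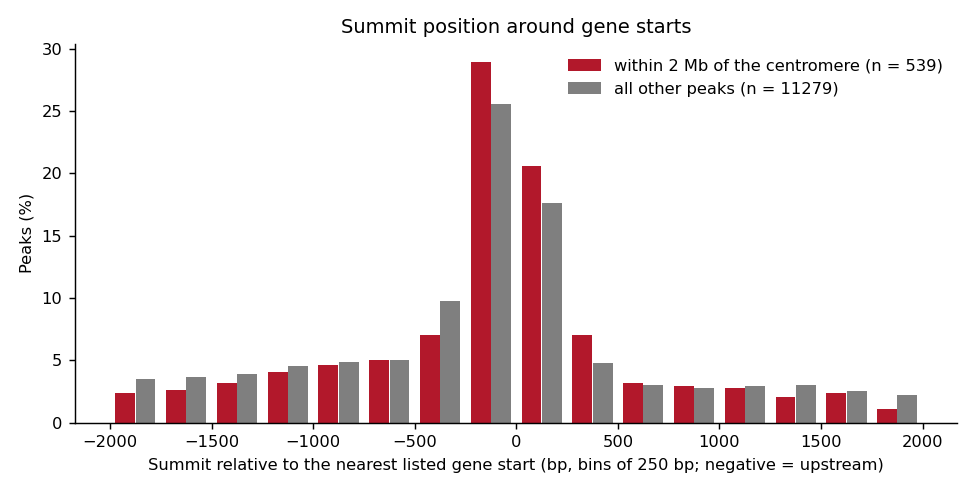
Percentage of peaks by position of the summit relative to the nearest listed gene start, in bins of 250 bp with upstream negative, for 539 pericentromeric peaks (red) and 11279 others (grey). In the bins on either side of the start the pericentromeric peaks reach 28.9% and 20.6%, and the others 25.6% and 17.7%.

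Genes with a described product formed a smaller part of the pericentromeric list. The 225 genes entered only as expressed proteins made up 34.4% of it, against 28.8% elsewhere, and 29 hypothetical protein genes 4.43%, against 3.43%. Of 22 classes of described proteins, 16 had a smaller share of the pericentromeric genes than of the others and 6 a larger one. These shares are of all listed genes. Transposons took up 15.9% of them near the centromere, against 5.99% elsewhere, which leaves a smaller share for all other genes. Some of the 22 classes held fewer than 3 pericentromeric genes. Among the 15 with at least 3 pericentromeric genes, the median fold was lower near the centromere in 7 and higher in 8. The highest fold of a hypothetical protein gene was 5.94, at LOC_Os11g19454.

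The study's title concerns secondary cell wall formation, and transcription factors and sugar-chain enzymes are among the kinds of genes that bear on it. The 8 transcription factor genes (1.22%, against 2.93% elsewhere) had a median fold of 3.05, against 3.38. They were led by the AP2-domain gene LOC_Os07g22730 (fold 5.66, summit 37 bp downstream of the start), the MYB gene LOC_Os03g31230 (5.62, 203 bp upstream) and LOC_Os02g26430, described as WRKY42 (5.42, 277 bp upstream). The peak of LOC_Os02g26430 was shared with the transposon gene LOC_Os02g26420. The MADS-box gene OsMADS69 had 2.70, and the helix-loop-helix gene LOC_Os01g33400 had 2.21. The MYB, WRKY and helix-loop-helix genes were picked out after their values were seen. The 9 glycosyl transferase and hydrolase genes (1.38%, against 1.44% elsewhere), for enzymes that build and trim sugar chains, had a median fold of 3.78, against 3.28 for 203 elsewhere, and LOC_Os03g37010 led with 7.91 in a peak of 1709 bp. Among them the family 43 gene LOC_Os10g13810, of the family that extends the xylan backbone, was enriched 3.71-fold, 93 bp upstream of its start. It too was chosen once its value was known. Of the cellulose synthase-like genes CSLD5 had a fold of 4.74, with the summit 1615 bp upstream, and CSLH1, of a family that makes mixed-linkage glucan in barley, had 3.36, with the summit 1663 bp downstream. POEI28 and POEI27, both described as of the pollen Ole e I allergen and extensin family, had 3.27 and 2.60.

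Kinase genes had median folds above the 3.07 of all pericentromeric peaks, as did several other classes. The 9 receptor and wall-associated kinase genes had folds of 2.21 to 4.78 and a median of 3.48, against 3.50 for 219 elsewhere, and LOC_Os10g20160 led. That gene shared its peak with the retrotransposon LOC_Os10g20170. LOC_Os03g32580, described as a BRASSINOSTEROID INSENSITIVE 1-associated receptor kinase, had a fold of 3.48, with 60 IP fragments and a background of 16.5, the highest background of the pericentromeric peaks. The 11 other kinase genes had folds of 2.10 to 8.12 and a median of 3.47, against 3.36, and LOC_Os12g23700 led. They included the MAP kinase kinase gene LOC_Os01g32660 (7.30), the MAP kinase kinase kinase gene LOC_Os02g21700 (4.42) and LOC_Os07g22710, of the calcium-dependent group (3.47). The auxin-induced genes OsSAUR8 and OsSAUR9, whose peaks were neighbours on chromosome 2, had folds of 5.15 and 2.70. The calcium sensor gene OsCML21 had 3.71. The 5 immune receptor genes ran from 2.22 to 4.41, led by LOC_Os07g17250 of the RPP13-like kind. The 5 cytochrome P450 genes, oxidases of many plant metabolites, ran from 2.57 to 4.60, led by LOC_Os07g19210. The 7 F-box genes, whose products choose proteins for degradation, ran from 2.10 to 5.98, with OsFBL8 at 5.15, and the 10 zinc finger genes from 2.23 to 7.35. Of 29 genes with a symbol in the list, the lowest fold was 2.01, at OsPOP23. Outside these classes the rhomboid protease gene OsRhmbd6 had 5.17 and CPuORF24, whose transcript holds a short conserved frame ahead of the main one, 7.39.

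Of the housekeeping groups, ribosomal protein genes were at the lower end near the centromere and elsewhere. The 6 ribosomal protein genes had folds of 1.76 to 3.07 and a median of 2.78, against 2.75 for 113 elsewhere, and LOC_Os02g21660 led. The 6 translation factor and tRNA synthetase genes had a median of 3.22, against 2.81, with the initiation factor IF-2 gene LOC_Os09g02770 at 5.33. Genes of splicing and RNA recognition, 133 elsewhere in the list (0.946%), had 0 members near a centromere, where 0 of 654 genes allows a share of up to 0.459% by the limit of 3 counts. This was 1 of 22 classes looked at, and no test was run. Over all listed genes 4.45% were pericentromeric. Among genes of chromosome proteins, the histone H3 gene LOC_Os02g25910 had a fold of 3.31, 12 bp downstream of its start, and the histone H1 gene LOC_Os04g18090 had 3.22. POLA3, for a subunit of the DNA polymerase alpha complex that starts new strands, had 5.25, 182 bp upstream of its start. The 3 RNA helicase genes grouped with it had folds of 2.63, 2.10 and 1.77. The list held only 3 genes of centromere or kinetochore proteins and 3 of cohesin or condensin proteins, all of them elsewhere, too few to compare when 4.45% of all listed genes were pericentromeric. The pentatricopeptide gene LOC_Os12g18640 (7.52), whose family edits and processes organelle RNA, had its summit 3 bp upstream of the start, and the potassium transporter gene LOC_Os03g37830 had a fold of 5.70.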

How the data were processed

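1 IP and 1 input library were made, per the labels' protocols, from plant tissue fixed with 1% formaldehyde for 15 min and sonicated to fragments of 300 to 500 bp. The submitters' processing notes name MACS2 2.2.7.1, Picard, SAMtools and Bowtie2 2.4.2. The sources used give no build, annotation release, filter or calling threshold. The authors deposited 1 list of peaks joined to LOC_Os genes. Its fold enrichment is a linear ratio, per the file headers. As deposited, each p-value and q-value is a −log10. The deposited score, about 10 times the −log10 p, was not used. Coordinates count from 1, with 1 added to each deposited peak start, and peak ends are as deposited.

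Each peak was taken once and placed by its start, and its position was read from the nearest of its listed gene starts. Whole-number IP fragments and the background were solved from the deposited fold and p for 12486 of 12487 peaks, within 0.0001 of the −log10 p plus 0.0002, by a script checked on simulated data. Library totals were not analysed here. The median peak rested on 20 fragments. The deposited fold is (fragments + 1) / (background + 1). For a count of 0 the limit is 3 counts. Other intervals are exact at 95%, binomial for shares, Poisson for densities and from order statistics for medians. Another 5 peaks on unplaced sequence counted among the other peaks, and not toward density. No test was run, since there was 1 IP library. Alternatives were window widths, subsets of peaks and leaving out each chromosome. Python 3.11.15, pandas 2.3.3, numpy 2.4.6, scipy 1.17.1 and matplotlib 3.10.9 were used.

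Members and lists were chosen with earlier results of these data known. Named genes were the 15 peaks of highest fold, the highest and the most central peak of each chromosome, class leaders, chromosome protein genes, genes with a symbol and the peaks at the 2 Mb limit. Classes went by keywords in the deposited descriptions. The centromere-specific class, and the keywords for receptor kinases and transporters, were set after members were seen. None of the listed identifiers was found among 39387 entries of the reference table, so no sequence is shown.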

Additional observations from a re-analysis of the deposited data

How the results depend on the processing

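Of 147 alternative settings, 140 moved a value by less than its interval and 7 by more. Only the difference in the share at the genome-wide background changed sign. The log2 ratio of densities, -1.67, was -1.88 with a window of 1 Mb to either side, -1.84 without transposon peaks and -1.81 with other peaks only over 4 Mb away. The difference in the share of peak numbers listed, 10.1 percentage points, was 14.5 at 1 Mb. That in the share at the genome-wide background, 0.797 points, was -3.10 at 1 Mb and 5.82 with weaker peaks, under the median fold, left out. It was also negative without transposon peaks (-0.156), so its sign depended on the setting. The width difference, -64 bp, was -21.5 bp at 1 Mb. With each chromosome left out in turn, the log2 fold difference ran from -0.07 to -0.03, the log2 ratio of densities from -1.70 to -1.63, the listed share from 9.24 to 10.9 points and the background share from -1.03 to 1.57 points. The transposon share ran from 9.30 to 11.6 points, the upstream share from -4.17 to -1.99, the share within 250 bp from 5.01 to 7.495 and the width from -70.5 to -53.5 bp.

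The centromere points are fixed positions, rounded in Mb, and whether they refer to the build of the files was not checked. The spread between plants and the IP of untagged plants were not analysed here. No paired analysis was possible because there was 1 IP and 1 input library.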
